A study of Mus musculus with 12 samples.

Results

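The 10 genes described here make, or respond to, prostaglandins and leukotrienes, and they were taken by gene symbol from a table of normalized counts. They are *Pla2g4a*, *Ptgs1*, *Ptgs2*, *Ptges*, *Hpgds*, *Ptger2*, *Ptger4*, *Alox5*, *Alox5ap*, and *Ltc4s*. All 10 were listed among the 18376 genes of the table, and all 10 were among the 14318 genes whose normalized counts averaged 5 or more over the 12 libraries and that were tested. RNA sequencing had been done on bone marrow-derived macrophages (BMDMs), which were matured in vitro from bone marrow progenitors of adult C57BL6/J WT mice. Every culture contained 50 ng/ml M-CSF, the growth factor that drives progenitors to macrophages, and treatment lasted for the 6 days of that maturation, so that no group held macrophages treated only after they had matured. CTRL cells had no further addition, Act cells had 50 ng/ml activin A, FST cells had 250 ng/ml FST288, and Act + FST cells had both at these doses, with 3 libraries in each group. Activin A is a member of the TGF-β superfamily that signals through SMAD2 and SMAD3, and FST288 is a follistatin, an extracellular protein whose binding to activin A blocks receptor engagement. The labels do not say whether the 3 libraries of a group came from separate mice or cultures, and p-values then measure only the spread between these libraries.

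Prostaglandins and leukotrienes are short-lived lipids made from arachidonic acid, which a phospholipase cuts out of membrane lipids. Cyclooxygenases turn arachidonic acid into the unstable prostaglandin H2, from which separate synthases make prostaglandin E2 or prostaglandin D2, and prostaglandin E2 acts on cells through its EP receptors. On the other branch, 5-lipoxygenase and its partner protein make leukotriene A4, which a further enzyme joins to glutathione to give leukotriene C4. Macrophages are a known source of both kinds of lipid, and prostaglandin E2 is known for raising cyclic AMP in macrophages and for damping their production of inflammatory cytokines.

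In Act cells the mRNAs of both cyclooxygenases, of the inducible prostaglandin E synthase, of the E receptors EP2 and EP4, and of 5-lipoxygenase were higher than in CTRL, and that of the prostaglandin D synthase was lower. The 10 genes were chosen with earlier results of these data known, so their counts are a description. Of the 10 genes, 7 passed the test in Act versus CTRL (limma, Benjamini-Hochberg adjusted p of at most 0.05), where 20.2% of the 14318 genes tested did. Of the 10, 6 passed as higher in Act, against 10.3% of all genes tested, and 1 passed as lower, against 9.97%. Of the 2896 genes that passed among all tested, 1468 were higher. The largest rises were those of *Ptges*, *Ptgs2*, and *Alox5*, which were the 3 members called differentially expressed genes (DEGs, which also need a fold change of at least 2), against 5.66% of all genes. The phospholipase *Pla2g4a* and the leukotriene genes *Alox5ap* and *Ltc4s* did not pass. The median log2 fold change of the 10 genes was 0.40, beside 0.0036 over all genes tested, and the median size without its sign was 0.40 beside 0.14. These are whole-culture libraries, in which a change in the share of cells that express a gene and a change in its RNA per cell cannot be told apart.

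**Figure D1:**
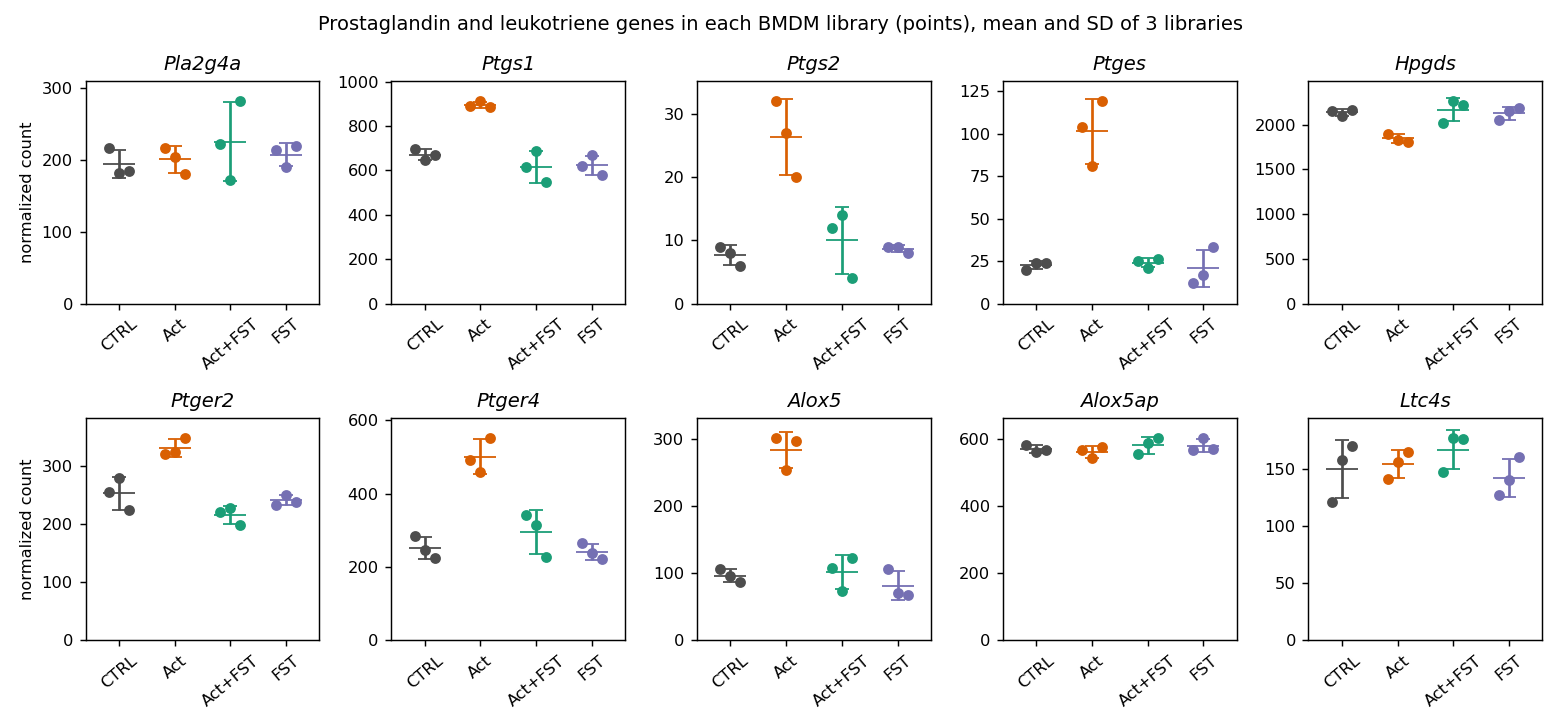
Normalized count (y axis, linear, from 0) of each of the 10 genes in every library (points), by group (x axis), with the mean and SD of 3 libraries as bars. In 6 of the panels the 3 Act points lie above the other 9, in the *Hpgds* panel they lie below them, and in the panels of *Pla2g4a*, *Alox5ap*, and *Ltc4s* they lie among them.

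The promoters of the 3 DEGs, the members with the largest rises, and of *Ptgs1*, the second cyclooxygenase gene, are shown because activin A signals through SMAD proteins, which bind the short SMAD box AGAC. Each run is the 250 bases before the RefSeq start site (RefSeq, GRCm38.p6), written 5′ to 3′ on the strand of the gene, in lower case. Capitals mark every AGAC and every GTCT, which is AGAC on the opposite strand. The *Ptgs1* run is chr2:36230176-36230425 (plus strand), that of *Ptgs2* is chr1:150099781-150100030 (plus strand), that of *Ptges* is chr2:30903298-30903547 (minus strand), and that of *Alox5* is chr6:116461179-116461428 (minus strand).
Ptgs1: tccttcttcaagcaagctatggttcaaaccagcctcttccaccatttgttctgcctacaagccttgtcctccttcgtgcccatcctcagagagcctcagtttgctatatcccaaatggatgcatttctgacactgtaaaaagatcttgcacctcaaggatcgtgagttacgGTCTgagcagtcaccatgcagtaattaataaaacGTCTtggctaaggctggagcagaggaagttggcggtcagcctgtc
Ptgs2: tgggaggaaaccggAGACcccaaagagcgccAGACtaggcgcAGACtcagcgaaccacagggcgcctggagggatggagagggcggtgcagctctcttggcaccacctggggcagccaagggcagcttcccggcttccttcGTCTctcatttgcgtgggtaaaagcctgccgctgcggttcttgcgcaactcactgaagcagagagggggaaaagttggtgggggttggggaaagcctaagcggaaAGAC
Ptges: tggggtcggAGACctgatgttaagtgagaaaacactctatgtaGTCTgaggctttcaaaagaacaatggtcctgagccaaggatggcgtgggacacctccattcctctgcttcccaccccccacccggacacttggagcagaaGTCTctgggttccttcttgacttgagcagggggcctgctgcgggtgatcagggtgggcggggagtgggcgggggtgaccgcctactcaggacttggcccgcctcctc
Alox5: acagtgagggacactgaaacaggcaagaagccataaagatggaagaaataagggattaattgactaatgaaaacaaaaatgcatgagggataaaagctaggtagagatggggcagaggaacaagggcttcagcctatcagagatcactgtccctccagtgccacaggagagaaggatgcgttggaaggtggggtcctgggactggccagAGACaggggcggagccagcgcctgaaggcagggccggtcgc

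The SMAD box occurred 5 times in the *Ptgs2* run, 3 times in that of *Ptges*, 2 times in that of *Ptgs1*, and 1 time in that of *Alox5*. A promoter window was found for 9 of the 10 genes, and all 9 held at least 1 SMAD box, a motif so short that 82.9% of the 32851 RefSeq windows of this length held it. At least 5 copies, a cut set at the *Ptgs2* count, the highest of the 9, were found in 4.68% of windows, and the median was 2. Of the windows not printed, that of *Ptger4* held 3 copies, those of *Pla2g4a* and *Hpgds* 2 each, and those of *Ptger2* and *Ltc4s* 1 each. The run of *Ptgs2* lies in exons of *Ptgs2os*, a gene on the opposite strand, for up to 183 of its 250 bases. For *Ptges* the RefSeq start used here lies 26566 bases inside the end of the gene in GENCODE, so the window is that of a shorter transcript. Of the 250 bases of the windows of *Hpgds* and *Ltc4s*, 178 and 84 lie in GENCODE exons of the gene itself. Among longer motifs, the SMAD palindrome GTCTAGAC (0.167% of windows), the AP-1 motif TGANTCA (6.75%), the cyclic AMP response element TGACGTCA (1.55%), and TATAAA (12.4%) were in none of the 9 windows. The PU.1 motif GAGGAA (23.3% of all windows) was in 5 of the 9, the C/EBP motif TTNNGNAA (36.8%) in 5, and the E-box CANNTG (66.2%) in 7. The GC-rich SMAD motifs GGCGC (32.0%) and GGCCG (30.4%) were in 2 windows each. All motifs were searched on both strands and may overlap each other, and a match is a match of letters, with no binding measured.

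*Pla2g4a* encodes cytosolic phospholipase A2, the enzyme that releases arachidonic acid from membranes, and lies at chr1:149829618-149961290 (mm10, minus strand; ENSMUSG00000056220). Its normalized counts were 217, 182, and 185 in CTRL and 217, 205, and 181 in Act. They were 223, 172, and 282 in Act + FST and 214, 190, and 219 in FST. All 4 groups overlapped. The log2 fold change of Act versus CTRL was 0.05 (95% interval -0.27 to 0.36), so that a change beyond 1.29-fold upward or to below 0.828-fold lies outside the interval. A smaller change was not detectable given the spread of this gene between replicates.

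*Ptgs1* and *Ptgs2* encode the 2 cyclooxygenases, of which *Ptgs1* is the constitutive one and *Ptgs2* the one known to be induced in activated macrophages. *Ptgs2* (chr1:150100031-150108227, plus strand; ENSMUSG00000032487) was low in CTRL, with normalized counts of 9, 8, and 6, and it was at 32, 27, and 20 in Act. In Act + FST it was at 12, 14, and 4, and in FST at 9, 9, and 8. Every Act library lay above every other library, the nearest values being 20 in Act and 14 in Act + FST. The rise in Act versus CTRL was 1.65 on the log2 scale (SE 0.38, adjusted p = 0.00784, limma on log2 of the normalized count + 1). Because the counts are this low, the added 1 shrinks the fold change, which ranged from 1.295 to 1.83 over the alternatives tried.

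*Ptgs1* lies at chr2:36230426-36252272 (plus strand; ENSMUSG00000047250). Its normalized counts were 696, 646, and 672 in CTRL and 889, 912, and 885 in Act. They were 615, 688, and 546 in Act + FST and 622, 668, and 581 in FST. The Act libraries again stood above the other 9, and the increase was small but well beyond the spread between replicates (log2 fold change 0.42, SE 0.07, adjusted p = 0.00163). Counts were divided by exon length, merged over all annotated transcripts of a gene, for a rough comparison of levels between genes. By this measure *Ptgs1* was the far more abundant cyclooxygenase mRNA in both groups. It stood at 231 normalized counts per kilobase of exon (kb) in Act and 173 in CTRL, where *Ptgs2* stood at 5.75 and 1.67.

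*Ptges* and *Hpgds* act on the product of the cyclooxygenases and moved in opposite directions. *Ptges* encodes the microsomal, inducible prostaglandin E synthase (chr2:30889471-30929863, minus strand; ENSMUSG00000050737). It was at 20, 24, and 24 normalized counts in CTRL and at 104, 81, and 119 in Act. Act + FST held 25, 21, and 26, and FST held 12, 17, and 33. The groups other than Act overlapped each other, and the lowest Act library, at 81, was well above the highest of the others, at 33. With a log2 fold change of 2.10 (95% interval 1.46 to 2.74, adjusted p = 0.000312), *Ptges* had the largest change of the 10 genes.

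*Hpgds* encodes the hematopoietic prostaglandin D synthase, known from mast cells, macrophages, and T helper cells (chr6:65117293-65144908, minus strand; ENSMUSG00000029919). Its counts were 2155, 2094, and 2165 in CTRL and 1900, 1833, and 1805 in Act. In Act + FST they were 2019, 2262, and 2218, and in FST they were 2048, 2156, and 2186. All 3 Act libraries lay below the other 9, and *Hpgds* fell by 0.21 on the log2 scale (SE 0.05, adjusted p = 0.00854), the 1 downregulated member. Its level was among the highest per base, with 0.322 normalized counts per exonic base, more than 97.4% of the genes tested. The highest gene tested was at 0.883, and whether duplicate reads were removed is not stated. An alternative chosen after seeing the data corrected for reads that share a start position, as if these had been counted only 1 time. With it the log2 fold change of *Hpgds* was -0.26 (adjusted p = 0.00864).

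*Ptger2* and *Ptger4* encode the E receptors EP2 and EP4, which both couple to cyclic AMP. *Ptger4* (chr15:5206661-5244187, minus strand; ENSMUSG00000039942) was at 284, 247, and 225 normalized counts in CTRL and at 493, 459, and 552 in Act. It was at 342, 314, and 227 in Act + FST and at 265, 239, and 222 in FST. No Act library fell within the range of the others, and the log2 fold change was 0.99 (SE 0.14, adjusted p = 0.00029), just under the 2-fold limit for a DEG. Over the alternatives it was 0.91 to 1.08, on both sides of that limit.

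*Ptger2* (chr14:44988195-45003820, plus strand; ENSMUSG00000037759) showed the smaller increase. It was at 256, 280, and 224 in CTRL and at 321, 325, and 349 in Act. It was at 221, 229, and 199 in Act + FST and at 234, 251, and 239 in FST. Act stood apart from the other 9 libraries here too, with 321 against 280 as the nearest values, and the log2 fold change was 0.39 (SE 0.08, adjusted p = 0.00464). Both receptor genes share exonic bases with genes on the opposite strand, *Ptger4* 15.3% with the pseudogene *Gm15937* and 1.23% with *Ttc33*, and *Ptger2* 4.74% with *Gm17173* and 2.77% with *Gm49364*. *Ptgs1* shares 3.81% with *Gm43621* in the same way. The strand setting of the counting is not stated. *Ttc33* did not pass (log2 fold change -0.0077) and *Gm17173* was at 0 to 5 counts in every library.

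In the leukotriene branch, 1 of the 3 genes passed. *Alox5* encodes 5-lipoxygenase, the enzyme that makes leukotriene A4 (chr6:116410077-116461178, minus strand; ENSMUSG00000025701). Its counts were 106, 96, and 87 in CTRL and 301, 253, and 296 in Act. They were 107, 74, and 123 in Act + FST and 106, 70, and 67 in FST. The Act libraries were above all others, with 253 as their lowest value. The log2 fold change of 1.55 (95% interval 1.12 to 1.97, adjusted p = 0.000151) had the smallest adjusted p of the 10 genes.

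*Alox5ap* encodes the protein that presents arachidonic acid to 5-lipoxygenase (chr5:149264767-149288153, plus strand; ENSMUSG00000060063). It was at 582, 560, and 567 in CTRL and at 568, 542, and 577 in Act. Act + FST held 554, 588, and 603, and FST held 567, 602, and 569. The groups overlapped, and the interval of the log2 fold change was narrow (-0.02, 95% interval -0.12 to 0.08), which corresponds to 0.923-fold to 1.06-fold. *Alox5ap* was read at 0.404 counts per exonic base, more than 98.9% of the genes tested, and shares 13.3% of its exonic bases with *Gm19719* on the opposite strand.

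*Ltc4s* encodes leukotriene C4 synthase, which joins leukotriene A4 to glutathione (chr11:50236461-50238616, minus strand; ENSMUSG00000020377). It was at 121, 158, and 170 in CTRL and at 141, 156, and 165 in Act. In Act + FST it was at 147, 177, and 176, and in FST at 127, 140, and 160. All 4 groups overlapped (log2 fold change 0.05, 95% interval -0.24 to 0.34). *Ltc4s* shares 26.4% of its exonic bases with *Gm26542* on the opposite strand, which was at 18 to 37 counts and did not pass either.

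**Figure D2:**
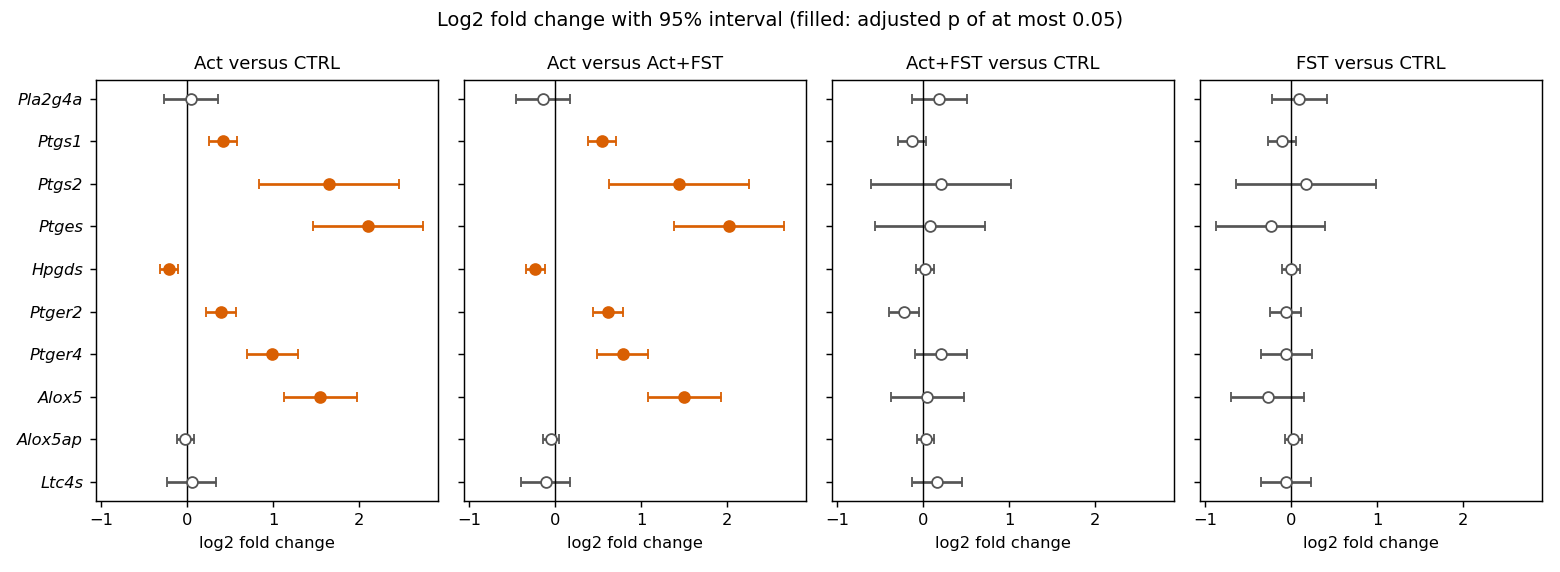
Log2 fold change (x axis) of each of the 10 genes (y axis) in the 4 comparisons, with its 95% interval, filled where the adjusted p was at most 0.05. In Act versus CTRL the values run from -0.21 for *Hpgds* to 2.10 for *Ptges*, while in Act + FST versus CTRL and FST versus CTRL every point is open.

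To see what the addition of FST288 changed where activin A was present in both groups, Act was also compared with Act + FST. In that comparison 7 of the 10 genes passed, against 21.3% of all genes tested. Of the 10, 6 passed as higher in Act (11.1% of all genes) and 1 as lower (10.2%), and 3 were DEGs (5.83%). The comparison shares its Act libraries with that of Act versus CTRL and is no independent repeat of it. *Ptges* was higher by 2.02 on the log2 scale (adjusted p = 0.000406), *Alox5* by 1.501 (adjusted p = 0.000185), and *Ptgs2* by 1.44 (adjusted p = 0.0156). The receptor genes *Ptger4* and *Ptger2* were higher by 0.78 (adjusted p = 0.00148) and 0.62 (adjusted p = 0.000209), and *Ptgs1* was higher by 0.54 (adjusted p = 0.000236). *Hpgds* was lower, with a log2 fold change of -0.23 (adjusted p = 0.00503). The *Ptgs2* call rested on few counts and was lost without Act replicate 1 (log2 fold change 1.29, adjusted p = 0.0617), without Act replicate 2 (1.41, adjusted p = 0.0507), and with only the 6 libraries compared (adjusted p = 0.0525).

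No difference between Act + FST and CTRL cells passed in these 10 genes. None of the 10, and 0.0% of all genes tested, passed in limma, while 655 genes (4.57%) had an unadjusted p under 0.05. Among the 10 genes only *Ptger2* did, with a log2 fold change of -0.22 (95% interval -0.40 to -0.05, adjusted p = 0.945). Among the genes that had changed in Act, the 95% interval of the difference was narrowest for *Hpgds*, from -0.09 to 0.12. It was wider for *Ptger4*, from -0.09 to 0.51, for *Alox5*, from -0.38 to 0.47, and for *Ptges*, from -0.56 to 0.72. That of *Ptgs2*, from -0.60 to 1.03, included a change of 2-fold. With the replicate number as a block, 40 genes were higher and 40 lower in this comparison, none of them among the 10.

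The comparison of FST with CTRL asked what the antagonist did by itself. None of the 10 genes passed in limma, nor did any other gene (0.0%), and of the 299 genes (2.09%) with an unadjusted p below 0.05 none was a member. With the replicate block the number of genes was 0 as well. The largest differences were those of *Alox5* (-0.27, 95% interval -0.70 to 0.15) and *Ptges* (-0.24, 95% interval -0.88 to 0.40), and the median over the 10 genes was -0.06.

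Whether activin A had another effect without FST288 than with it was tested as an interaction, the difference Act minus CTRL less the difference Act + FST minus FST. Here 5 of the 10 genes passed, against 6.74% of all genes tested, all with the larger rise in the absence of FST288 (3.99% of all genes). The difference was 1.78 for *Ptges* (adjusted p = 0.0232), 1.23 for *Alox5* (adjusted p = 0.0195), 0.73 for *Ptger4* (adjusted p = 0.0428), 0.55 for *Ptger2* (adjusted p = 0.0137), and 0.44 for *Ptgs1* (adjusted p = 0.0258). *Ptgs2* (1.61, adjusted p = 0.096) and *Hpgds* (-0.24, adjusted p = 0.064) did not pass. With the replicate number as a block they did, at adjusted p = 0.019 and 0.016, so that 7 genes passed, beside 16.3% of all genes in the blocked fit. In most of these genes the call was lost without certain single libraries. With any 1 library left out the difference stayed positive. It was 1.40 to 2.09 for *Ptges*, 1.02 to 1.38 for *Alox5*, 0.55 to 0.85 for *Ptger4*, and 0.35 to 0.52 for *Ptgs1*. The share of all genes that passed changed too, from 4.37% without CTRL replicate 3 to 7.32% without Act + FST replicate 1. *Ptger2* passed whichever library was left out. *Ptges* lost its call without Act replicate 1 (adjusted p = 0.0541) or Act replicate 3 (0.065), and *Alox5* without CTRL replicate 3 (0.0551), Act replicate 1 (0.05002), or Act replicate 3 (0.0522). *Ptgs1* lost it without CTRL replicate 2 or 3, any Act replicate, or FST replicate 1 or 2, with adjusted p up to 0.0658. *Ptger4* lost it without CTRL replicate 2 or 3, any Act replicate, or any FST replicate, with adjusted p up to 0.107. Without the trend on the mean *Ptgs1* (adjusted p = 0.0685) and *Ptger4* (0.0971) did not pass, nor did *Ptger4* with quantile normalization (0.0578). *Hpgds* gained its call without Act + FST replicate 1 (adjusted p = 0.0172).

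Across the whole set, the 3 Act libraries lay above all 9 others in 6 genes, beside 12.6% of all genes tested, and below them in 1, beside 11.3%. It follows that, within the replicate numbers, Act was above CTRL in 3 of 3 pairs for each of the 6 genes. For *Hpgds* it follows in the same way that Act was above CTRL in 0 of 3 pairs. For *Pla2g4a*, *Alox5ap*, and *Ltc4s* it was above in 1 of 3 pairs.

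The order of the genes by level, in normalized counts per kb of exon, was compared next. The SDs cover the spread between libraries, not any error from using the exons of all annotated transcripts as the length. In CTRL the most abundant was *Alox5ap* with 401 ± 7.92 (SD, n = 3), followed by *Hpgds* with 333 ± 5.98, *Ptgs1* with 173 ± 6.44, and *Ltc4s* with 148 ± 25.2. *Ptger2* with 48.8 ± 5.41, *Ptger4* with 37.9 ± 4.49, *Pla2g4a* with 30.5 ± 3.04, and *Alox5* with 23.5 ± 2.32 came next, and *Ptges* with 5.77 ± 0.588 and *Ptgs2* with 1.67 ± 0.334 came last. The neighbours *Ptgs1* and *Ltc4s*, and *Ptger4* and *Pla2g4a*, overlapped between libraries and could not be ordered. In Act these 4 were again the most abundant, with no overlap between neighbours among them, and *Ptger4* at 75.4 ± 7.08, *Alox5* at 69.0 ± 6.43, and *Ptger2* at 63.9 ± 2.92 formed a group whose neighbours overlapped. *Alox5* thus stood above *Pla2g4a* in Act and below it in CTRL. *Ptges*, at 25.8 ± 4.87, reached the range of *Pla2g4a*, at 31.5 ± 2.87. *Ptgs2* stayed the lowest in all 4 groups.

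**Figure D3:**
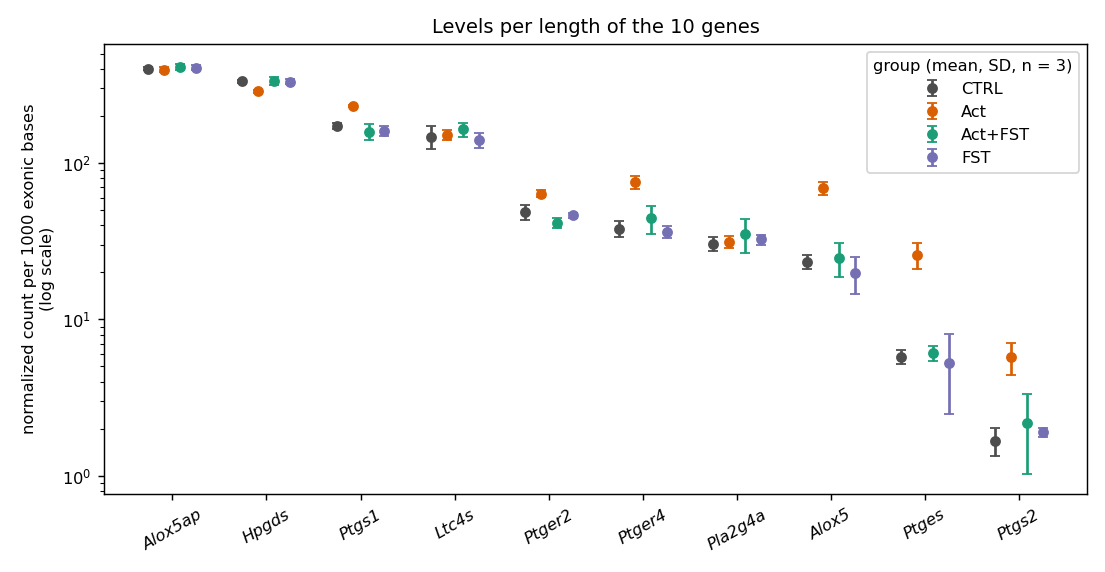
Normalized count per kb of exon (y axis, log scale) of the 10 genes, ordered by their CTRL level (x axis), as mean and SD of 3 libraries per group. The 4 group means of *Alox5ap* lie together at 396 to 410, while *Alox5* stands at 23.5 in CTRL and 69.0 in Act and *Ptges* at 5.77 and 25.8.

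The other genes of the pathway were taken from a list of 53 symbols, of which 40 were listed in the table and 33, on 34 rows, were tested. In Act versus CTRL 9 of the 34 passed, 5 higher and 4 lower, beside the 20.2% of all genes, and the median log2 fold change was 0.027. None of the 6 further prostanoid synthase genes tested passed, including the other E synthases *Ptges2* (0.04) and *Ptges3* (0.16) and the thromboxane synthase *Tbxas1* (0.10). Secreted phospholipase A2 enzymes are another source of arachidonic acid, and 2 of their 3 genes tested fell. The third, *Pla2g12a*, was at 109, 136, and 128 counts in CTRL and at 109, 128, and 121 in Act and did not pass (log2 fold change -0.06, adjusted p = 0.804). *Pla2g2e* went from 36, 44, and 46 counts in CTRL to 5, 8, and 4 in Act (log2 fold change -2.73, adjusted p = 1.78e-05), and *Pla2g5* from 10, 13, and 13 to 2, 0, and 0. For *Pla2g5* the size depends on the added constant (-3.16, and -1.60 with a pseudocount of 5). *Pla2g7*, the lipoprotein-associated phospholipase that breaks down platelet-activating factor, rose from 619, 623, and 529 to 1043, 1048, and 1071 (0.84, adjusted p = 1.21e-05).

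Beside *Ptger2* and *Ptger4*, the third E receptor gene tested moved the other way. *Ptger3*, which encodes EP3, a receptor that lowers cyclic AMP, was at 100, 85, and 97 counts in CTRL and at 31, 25, and 27 in Act (log2 fold change -1.73, adjusted p = 1.46e-05). *Ptgir*, the prostacyclin receptor gene, rose from 229, 189, and 145 to 316, 292, and 336 (0.76, adjusted p = 0.0107). The breakdown genes *Hpgd*, whose enzyme starts the inactivation of prostaglandin E2, and *Ptgr1* changed in opposite directions, by 0.64 (adjusted p = 0.0045) and -0.43 (adjusted p = 0.00512). Among the leukotriene genes *Cyp4f18*, which acts on leukotriene B4, rose by 0.75 (adjusted p = 0.00167), and none of the 3 leukotriene receptor rows tested passed. *Fpr2*, a receptor of lipoxins and formyl peptides, rose from 21, 22, and 10 to 66, 69, and 97 (2.12, adjusted p = 0.000705). With the replicate number as a block 17 of the 34 passed, 9 higher and 8 lower, beside 31.5% of all genes tested in the same blocked fit. The 8 gained, named here because the block changed their call, were *Abcc1*, *Cysltr1*, *Ggt5*, and *Mgst2* with higher and *Alox12*, *Lta4h*, *Mgst3*, and *Prxl2b* with lower values in Act.

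**Figure D4:**
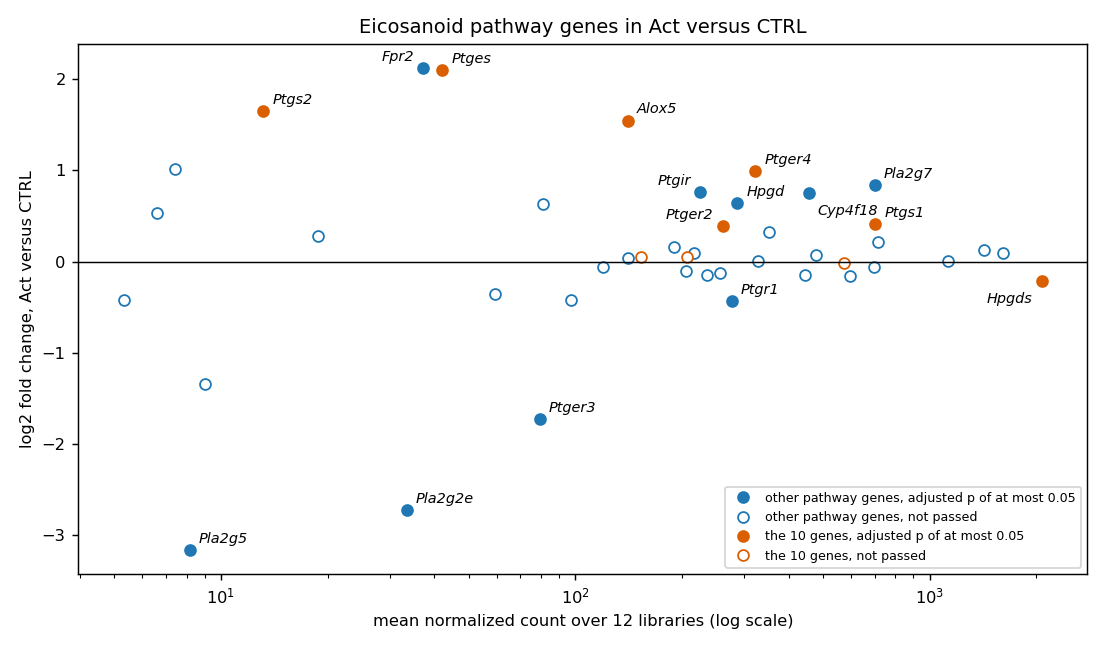
Log2 fold change of Act versus CTRL (y axis) against the mean normalized count over 12 libraries (x axis, log scale) for the 10 genes (orange) and the 34 other pathway rows tested (blue), filled where the adjusted p was at most 0.05. The E receptor genes separate, with *Ptger4* at 0.99 and *Ptger2* at 0.39 above the line and *Ptger3* at -1.73 below it.

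Several of the 10 genes are also expressed by other blood cells, and markers of such cells were summed in every library. All 7 macrophage markers were tested and none passed, and their summed counts ranged from 10525 to 11683 over the 12 libraries. Their mean counts per exonic base ran from 0.116 for *Itgam* to 0.877 for *Lyz2*, beside 0.883 for the highest gene tested. Whether counts this dense flatten a difference was not tested. Mast cells and basophils share *Hpgds*, *Alox5*, and *Ltc4s* with macrophages. Of their 8 markers 5 were listed, *Cpa3*, *Ms4a2*, *Mcpt8*, and *Gata2* were at 0 to 9 counts, and the sum was 38 to 69 in CTRL and 16 to 43 in Act. *Kit* was lower in Act versus CTRL (-1.23, adjusted p = 0.0171). Eosinophil markers summed to 178 to 345 in CTRL and 107 to 155 in Act, with *Ccr3* (-1.31, adjusted p = 0.0309) and *Prg2* (-1.38, adjusted p = 0.048) lower. *Siglecf* was higher in Act versus Act + FST (1.06, adjusted p = 0.0115). Neutrophil markers summed to 451 to 709 in CTRL and 373 to 606 in Act, with *Mpo* (-2.02, adjusted p = 0.00923) and *Elane* (-1.64, adjusted p = 0.0253), genes of early granulocyte precursors, lower, and *S100a9*, the most abundant, not passing. In Act versus Act + FST *Kit* (-1.21, adjusted p = 0.0171), *Mpo* (-2.03, adjusted p = 0.00822), and *Elane* (-1.52, adjusted p = 0.0352) were lower too. The *Mpo* calls held whichever library was left out. In Act versus CTRL the calls of *Kit* and *Elane* were lost without CTRL replicate 2, Act replicate 1, or Act replicate 3 (adjusted p up to 0.0743 and 0.101), and that of *Ccr3* without CTRL replicate 1 or 2 or Act replicate 2 or 3 (up to 0.108). That of *Prg2* was lost without any of the 6 libraries compared (adjusted p up to 0.169). In Act versus Act + FST that of *Kit* was lost without Act replicate 1 or 3 (adjusted p up to 0.0721), that of *Elane* without Act replicate 1 or 3 or Act + FST replicate 1 or 2 (up to 0.134), and that of *Siglecf* without Act replicate 1 (0.0507). The 3 platelet markers tested did not pass, and platelets are a known source of *Ptgs1*. *Pf4* was at 248 to 316 counts, *Ppbp* at 13 to 80, and *Itga2b* at 14 to 67. *Gp6*, at 0 to 7 counts, and *Gp9*, at 0 to 6, were too low to be tested. Dendritic cell, lymphocyte, and stromal markers did not pass either, with *Col1a1* at 22 to 83 counts in replicate 1 of every group and at most 8 elsewhere. The part of these cells in the changes of the 10 genes was not tested.

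The genes most like *Ptges* and *Hpgds*, the members with the largest rise and fall, were sought by Pearson's r of the log2 values over the 12 libraries, among genes with a mean of at least 50. For *Ptges* they were *Als2cl* (r = 0.971), *Il1rl2* (0.970), and *Brpf1* (0.966), out of 10634 genes. For *Hpgds* they were *Ints6l* (0.973), *Anxa7* (0.971), and *Gnpda1* (0.970), out of 10633. The 12 points share the 3 Act libraries, in which both genes stand apart, and the values are a description.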

How the data were processed

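The mRNA of 12 BMDM libraries was sequenced as single-end reads with a stranded kit. The authors trimmed reads with Trimmomatic 0.39, used STAR 2.7.9a for alignment to mm10, and obtained gene counts from featureCounts 2.0.2. The values the authors deposited are normalized counts, treated here as a score, since each count had been rescaled by a factor common to its library and then rounded. The authors used DESeq2 1.30.0 for their own comparisons. The scaling formula, the strand setting, and any removal of duplicate reads are not given in the sources used here. Total normalized counts were 5643708 to 5955400 per library, and the reads behind them could not be recovered, so counting error enters only through the spread between replicates and is largest, relative to the value, for low genes.

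Groups and replicate numbers came from the labels. The test planned was limma 3.58.1 (R 4.3.3, two-sided, moderated variances with a mean trend) on log2(normalized count + 1), with all 12 libraries and 4 group means. It covered genes with a mean of at least 5, and p-values were adjusted by Benjamini-Hochberg over all of these 14318 genes. Intervals are 95% intervals of limma. The model was tested on simulated data. Replicate numbers were checked for pairing by correlating each library's deviations from its group mean. Each of 18 pairs with the same number correlated above 0.1 (0.157 to 0.481, mean 0.312), so libraries with the same number deviated together. Pairs with different numbers were not computed. The planned test leaves the replicate number out, and the replicate block is an alternative. Others were pseudocounts of 0.5 and 5, no filter or a mean of at least 50, quantile normalization, recomputed TMM factors, no trend, only the groups compared, fold changes of 1.5 and 2, and leaving out each library.

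Gene coordinates and exon lengths came from GENCODE M21, where all 10 genes had the coordinates of the table, and promoters from RefSeq. The members and lists were chosen with earlier results of these data known. Named are all 10 members and the 3 genes most like the members with the largest rise and fall. List genes that passed in Act versus CTRL are named, at most 8 each way. The plan for each marker list was to name the most abundant marker and any that passed, and some others are named for their counts. Of the pathway list 13 symbols and of the marker lists those without a row were not analysed here.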

Additional observations from a re-analysis of the deposited data

Results flagged for a closer look

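Named were the 10 members and 9 other pathway genes. In the interaction test of limma, 6.74% of all 14318 genes passed. Among the genes named, the effect of activin A differed with and without FST288 in 9. Of the 10 members these were *Ptges*, where the log2 change was larger by 1.78 without FST288 (adjusted p = 0.0232), *Alox5* (1.23, adjusted p = 0.0195), *Ptger4* (0.73, adjusted p = 0.0428), *Ptger2* (0.55, adjusted p = 0.0137), and *Ptgs1* (0.44, adjusted p = 0.0258). In each of the 5, all 3 Act libraries lay above the other 9, as they did in 12.6% of all genes tested. The interaction uses these same Act libraries, so the separation is no further evidence. Of the other pathway genes they were *Pla2g7* (0.87, adjusted p = 0.000734) and *Cyp4f18* (0.73, adjusted p = 0.0374), which rose more without FST288, and *Ptger3* (-1.42, adjusted p = 0.00299) and *Pla2g2e* (-2.57, adjusted p = 0.00161), which fell more. The other pathway genes had been named because they passed in Act versus CTRL, a difference that also enters the interaction. The calls of all members but *Ptger2* were lost when certain single libraries were left out, as given with the comparison. Those of *Pla2g7*, *Ptger3*, and *Pla2g2e* held whichever library was left out. That of *Cyp4f18* was lost without CTRL replicate 1 or 3, any Act replicate, or FST replicate 1 or 2 (adjusted p up to 0.0906) and without the trend on the mean (adjusted p = 0.0913).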

How the results depend on the processing

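All 7 calls of Act versus CTRL held in every alternative that gave a value, and a mean of at least 50 gave none for *Ptgs2* and *Ptges*. A fold change of at least 1.5 left 4 members in Act versus CTRL and 3 in the interaction. A fold change of at least 2 left 3 members in Act versus CTRL, 3 in Act versus Act + FST, 2 in the interaction, and 4 of the pathway genes. The interaction count was 3 with no trend on the mean and 1 to 6 when single libraries were left out, beside 5. The replicate block gave 17 pathway genes in place of 9 and, for the members, changed only the interaction calls of *Ptgs2* and *Hpgds*. Over all genes it gave 2338 higher and 2170 lower in Act versus CTRL, beside 1468 and 1428, in Act versus Act + FST 2453 and 2210, beside 1588 and 1460, and in the interaction 1340 and 997, beside 571 and 394. The cause was not tested. The correction for reads sharing a start position, added after seeing the data, changed no member's call.

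Signs changed only in values that did not pass, when single libraries were left out. In Act versus CTRL the log2 fold changes then ranged from -0.038 to 0.0073 for *Alox5ap*, -0.092 to 0.15 for *Ltc4s*, and -0.011 to 0.13 for *Pla2g4a*, and in Act versus Act + FST from -0.32 to 0.033 for *Pla2g4a*. In Act + FST versus CTRL they ranged from -0.11 to 0.25 for *Alox5*, -0.015 to 0.067 for *Hpgds*, -0.0056 to 0.17 for *Ptges*, and -0.089 to 0.70 for *Ptgs2*. In FST versus CTRL they ranged from -0.0040 to 0.039 for *Alox5ap*, -0.025 to 0.022 for *Hpgds*, -0.21 to 0.035 for *Ltc4s*, -0.15 to 0.011 for *Ptger2*, -0.13 to 0.034 for *Ptger4*, and -0.62 to 0.069 for *Ptges*. In the interaction they ranged from -0.059 to 0.0020 for *Alox5ap* and -0.23 to 0.13 for *Pla2g4a*. *Ptgs2*, at 4 to 32 counts, is the member that low counts limit most.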
